A study of Mus musculus with 6 samples.

Results

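The genes of the smooth muscle contractile apparatus were followed in visceral fat of obese mice with a deletion of heme oxygenase-1 (HO-1, gene Hmox1) targeted to adipose precursors (APs). The set holds 10 named genes (Actg2, Acta2, Tagln, Myh11, Cnn1, Myl9, Mylk, Lmod1, Des and Synpo2) out of 19938 genes on the array that carry a symbol of their own, and each of the 10 was read by 1 probeset. The members are a list of names and were not picked by a threshold on these arrays, but the list was chosen with earlier results of these data known. RNA came from perigonadal visceral white adipose tissue (viWAT), or from APs purified out of it, and the labels describe the material both ways. The mice were kept on a high-fat diet (HFD) for 8 weeks from 6 weeks of age. In Hmox1f/f PdgfraCre mice the floxed Hmox1 alleles (loxP sites around exon 2) are cut by a Cre recombinase under the control of the Pdgfra promoter, which targets APs. The Hmox1f/f controls carry these floxed alleles too but lack Cre, and all mice were males of the C57BL/6J background. There were 3 arrays per genotype, Hmox1f/f PdgfraCre 1, 2 and 3 and Hmox1f/f 4, 5 and 6, each of RNA pooled from 2 mice. An effect of Cre itself and an effect of losing Hmox1 cannot be told apart in this design, and the pools were too few for a rank or permutation test to go below p = 0.1 (exact, two-sided).

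Smooth muscle shortens when the myosin light chain kinase (Mylk) phosphorylates the regulatory light chain (Myl9), which lets the smooth muscle myosin heavy chain (Myh11) pull on thin filaments. These filaments are built from alpha and gamma smooth muscle actin (Acta2 and Actg2), are decorated by transgelin (Tagln) and calponin (Cnn1), and are nucleated by leiomodin (Lmod1), while desmin (Des) and synaptopodin-2 (Synpo2) tie them to the cell's dense bodies and Z-line-like structures. In fat such cells lie mainly in the walls of arterioles and larger vessels, and Acta2 and Tagln are also made by activated fibroblasts. Actg2 is best known from the muscle of the gut and other hollow organs. Many of these genes are switched on together by serum response factor with its coactivator myocardin, through a DNA element called the CArG box.

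Promoter sequence was at hand for 7 of the 10 members (RefSeq, build GRCm38.p6, 250 bases before to 50 bases after the start). No sequence is shown for Actg2, Tagln and Myh11. The windows were searched for the CArG box, exact or with at most 1 G or C in its core of 6 bases, and for the MCAT element CATTCC on both strands, which is bound by TEAD factors and does not overlap a CArG box in these windows. An exact CArG box lay in 1 of the 7 windows (Myl9) and in 1.63% of all 32851 promoters of the same length. With 1 G or C allowed, 2 of the 7 windows held it (Acta2 and Myl9), against 9.98% of all promoters. The MCAT element lay in 3 of the 7 (Acta2, Mylk and Lmod1), against 14.7% of all promoters. The Acta2 window is at chr19:34255324-34255623 on the minus strand, Myl9 at chr2:156775214-156775513 on the plus strand, Cnn1 at chr9:22099003-22099302 on the plus strand and Des at chr1:75360042-75360341 on the plus strand. Acta2 and Myl9 are printed because they hold the CArG boxes, Cnn1 because it varied most between arrays and Des because it was among the genes with the smallest p. Capitals mark CArG boxes and MCAT elements, and a window in lower case throughout held neither.
Acta2: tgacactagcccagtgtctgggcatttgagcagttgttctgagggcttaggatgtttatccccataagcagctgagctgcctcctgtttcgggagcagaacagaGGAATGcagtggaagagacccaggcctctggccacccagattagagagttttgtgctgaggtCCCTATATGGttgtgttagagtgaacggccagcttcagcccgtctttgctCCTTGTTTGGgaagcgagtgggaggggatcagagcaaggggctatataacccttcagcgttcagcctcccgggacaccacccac
Myl9: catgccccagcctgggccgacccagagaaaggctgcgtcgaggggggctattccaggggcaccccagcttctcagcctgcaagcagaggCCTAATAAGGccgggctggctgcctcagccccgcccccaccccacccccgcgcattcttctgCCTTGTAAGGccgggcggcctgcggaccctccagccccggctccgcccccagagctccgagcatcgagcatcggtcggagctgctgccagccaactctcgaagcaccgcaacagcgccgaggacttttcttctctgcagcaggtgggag
Cnn1: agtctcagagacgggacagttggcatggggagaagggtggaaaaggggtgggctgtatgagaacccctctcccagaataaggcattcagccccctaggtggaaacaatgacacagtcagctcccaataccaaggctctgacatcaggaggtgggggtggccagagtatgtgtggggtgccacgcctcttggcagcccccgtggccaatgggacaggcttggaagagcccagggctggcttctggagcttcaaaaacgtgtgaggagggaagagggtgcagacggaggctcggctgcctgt
Des: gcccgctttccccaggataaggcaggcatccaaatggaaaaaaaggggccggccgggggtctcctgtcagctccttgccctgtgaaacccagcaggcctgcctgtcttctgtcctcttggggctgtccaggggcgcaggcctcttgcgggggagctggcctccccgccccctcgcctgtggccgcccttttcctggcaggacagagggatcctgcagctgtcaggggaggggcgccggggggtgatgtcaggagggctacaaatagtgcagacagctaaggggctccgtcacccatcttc
In Acta2 the boxes CCCTATATGG and CCTTGTTTGG began 84 and 34 bases before the start, and the MCAT element (GGAATG, on the opposite strand) began 146 bases before it. In Myl9 the exact box CCTAATAAGG began 161 bases before the start and CCTTGTAAGG began 99 bases before it. A match is a string of letters and not a measured binding site.

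Most of the contractile genes varied widely from array to array within each genotype, and only Actg2 and Des reached an unadjusted p under 0.05 between genotypes. Both were lower with Cre, with log2 differences of -1.06 ± 0.31 (SE) for Actg2 and -0.36 ± 0.12 (SE) for Des. No member passed an adjusted p of 0.05 in limma. Synpo2 lay in the other direction at 0.29 ± 0.12 (SE), and the remaining 6 tested members had intervals on both sides of 0. All values are log2 of the deposited array intensity, and a gene was tested when it exceeded 7 on at least 3 arrays, which 9 of the 10 members did. Lmod1 did so on 1 array and was described only.

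Several facts of the whole series bear on these values. Array medians lay between 106 and 115 intensity units, and any pair of arrays correlated at 0.9603 to 0.996 across genes, which are not independent replicates. Hmox1 was at 11.25, 11.36 and 10.74 with Cre, against 11.90, 11.63 and 12.32 in the controls, a difference of -0.83 ± 0.21 (SE, adjusted p = 0.1996 by limma). The labels name the cells as APs, which the methods purify by removing CD45- and CD31-positive cells on beads and capturing Sca-1-positive ones, but they also describe the material as viWAT. The adipokine gene Adipoq was at 12.74 to 13.10, the endothelial gene Pecam1, which encodes CD31, at 9.97 to 10.56 and the macrophage gene Adgre1 at 11.08 to 11.92 on the 6 arrays. Pdgfra, the defining AP gene, was at 10.05 to 10.24 with Cre and 10.31 to 10.36 without (unadjusted p = 0.0766, adjusted p = 0.323 by limma). Of 5 AP marker genes tested, Pdgfra among them, 3 were lower and 2 higher with Cre, beside 57.4% of all genes lower. In such mixed RNA, fewer cells of a type and less RNA per cell cannot be told apart.

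Actg2, the gamma actin of visceral smooth muscle, had the largest genotype difference of the set. It was at 7.61, 7.32 and 8.38 on the Hmox1f/f PdgfraCre arrays and at 9.30, 8.73 and 8.46 on the Hmox1f/f arrays. Every array with Cre was thus below every control, although the nearest values, 334 intensity units on Hmox1f/f PdgfraCre 3 and 353 on Hmox1f/f 6, were close. The means were 7.77 ± 0.55 with Cre and 8.83 ± 0.43 without (SD, n = 3 each). Signal in the Cre group was thus lower by 2.08-fold, and the 95% confidence interval of the log2 difference ran from -1.78 to -0.34 (unadjusted p = 0.0101, adjusted p = 0.208 by limma). Another 531 of the 11024 genes tested had a p as small. The size of the difference was beyond that of 99.7% of the genes tested. Leaving out each array in turn gave -1.36 to -0.82, with an unadjusted p under 0.05 each time (0.0346 without Hmox1f/f PdgfraCre 2, the largest).

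Des encodes desmin, the muscle intermediate filament protein. Its log2 intensity was 8.61, 8.44 and 8.69 with Cre, against 9.13, 8.97 and 8.71 without, again with no overlap but with a gap of only 412 against 420 units between the nearest arrays. Means were 8.58 ± 0.13 with Cre and 8.94 ± 0.21 without (SD, n = 3 each), a 1.28-fold lower signal (interval -0.65 to -0.07, unadjusted p = 0.0222, adjusted p = 0.227 by limma). Leaving out Hmox1f/f PdgfraCre 2 raised the unadjusted p to 0.0737, leaving out Hmox1f/f 4 gave 0.0782 (difference -0.26) and leaving out Hmox1f/f 5 gave 0.0607.

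Synpo2 encodes an actin-bundling partner of alpha-actinin. It was at 10.53, 10.44 and 10.65 with Cre, against 10.44, 10.31 and 10.001 without. The groups did not overlap, but the nearest arrays were at 1391 units with Cre and 1387 without, a negligible gap. The difference of 0.29 ± 0.12 (SE) had an interval from -0.00304 to 0.58 (unadjusted p = 0.0519, adjusted p = 0.288 by limma). It was 0.16 without Hmox1f/f 6, the lowest array, and 0.38 without Hmox1f/f 4 (unadjusted p = 0.0226 by limma). The unadjusted p by limma was 0.0278 after a further quantile normalization, 0.0467 with median centring and 0.0446 with trended robust eBayes.

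**Figure D1:**
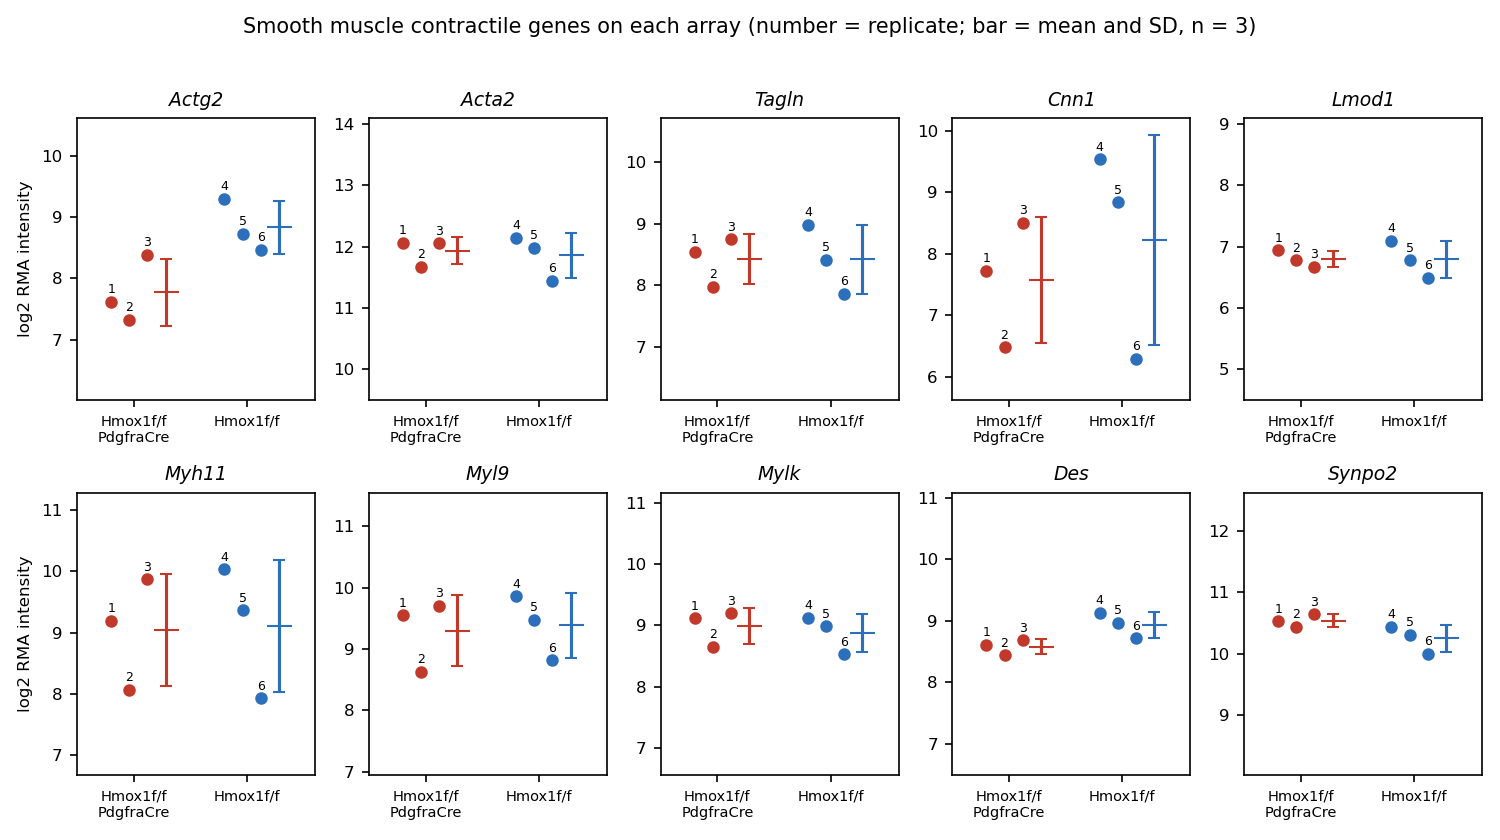
Log2 RMA intensity (vertical axis, the same length of scale in each panel) of the 10 contractile genes on each Hmox1f/f PdgfraCre (red, left) and Hmox1f/f (blue, right) array, labelled by replicate number, with mean and SD of 3 arrays. Actg2, Des and Synpo2 are the genes whose groups do not overlap, while Cnn1 and Myh11 spread over 1.80 to 3.25 log2 units inside each group.

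Across all genes tested, 0% passed the adjusted threshold (0 of 11024; 17.6%, or 1944 genes, had an unadjusted p under 0.05), and 2 of the 9 members tested did the latter. By direction, 13.8% of all genes were at that p and lower with Cre, as were Actg2 and Des, and 3.82% were at that p and higher, with no member among them. After a further quantile normalization 1123 of 1820 such genes were lower, against 1523 of 1944 here. Groups that did not overlap were found for 3 members, 2 lower and 1 higher, against 27.0% of all genes (21.2% lower and 5.82% higher). The shares among the members were therefore near the background. The median difference over the 9 members tested was -0.06, beside -0.03 over all genes tested, and 5 of the 9 were lower, beside 57.4% of all genes.

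Calponin, which restrains the myosin motor, and the smooth muscle myosin heavy chain spread most inside a genotype. Cnn1 was at 7.73, 6.48 and 8.50 on the arrays with Cre and at 9.54, 8.84 and 6.29 on the controls. In intensity units this ran between 78 on Hmox1f/f 6 and 744 on Hmox1f/f 4, so arrays of the same genotype held both the lowest and the highest value. Its difference of -0.65 ± 0.86 (SE) was smaller than its own error (adjusted p = 0.697 by limma). It was -1.62 without Hmox1f/f 6 (unadjusted p = 0.0239) and 0.01 without Hmox1f/f 4. Myh11 was at 9.20, 8.07 and 9.87 with Cre and at 10.03, 9.37 and 7.93 without, a 4.29-fold spread over all arrays around a genotype difference of -0.06 ± 0.61 (SE). The Myh11 difference turned to 0.42 without Hmox1f/f PdgfraCre 2, 0.40 without Hmox1f/f 4 and 0.07 without Hmox1f/f 5, and was -0.65 without Hmox1f/f 6.

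The light chain and its kinase had the same order of arrays as Cnn1 within each genotype, with smaller steps. Myl9 was at 9.55, 8.63 and 9.70 with Cre and at 9.86, 9.47 and 8.82 without (difference -0.09 ± 0.34, SE). Mylk was at 9.11, 8.65 and 9.19 with Cre and at 9.12, 8.99 and 8.52 without (difference 0.11 ± 0.20, SE). In both genes Hmox1f/f PdgfraCre 2 and Hmox1f/f 6 were the lowest arrays, and the other 4 lay close together.

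Among the thin filament genes, Acta2 was bright on every array, at 12.07, 11.68 and 12.06 with Cre and 12.15, 11.98 and 11.45 without, and differed by 0.07 ± 0.19 (SE; interval -0.38 to 0.53). An Acta2 change of the size seen for Actg2 lies outside that interval. The actins are near-identical in protein sequence. Their nucleotide likeness and the positions of the probes were not analysed here, so signal shared between actin probesets cannot be told apart. Tagln was at 8.55, 7.98 and 8.75 with Cre and 8.98, 8.41 and 7.86 without, with a difference of 0.00 ± 0.30 (SE). Lmod1 was dim, at 6.94, 6.78 and 6.67 with Cre and 7.10, 6.78 and 6.49 without, with means that differed by 0.01.

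**Figure D2:**
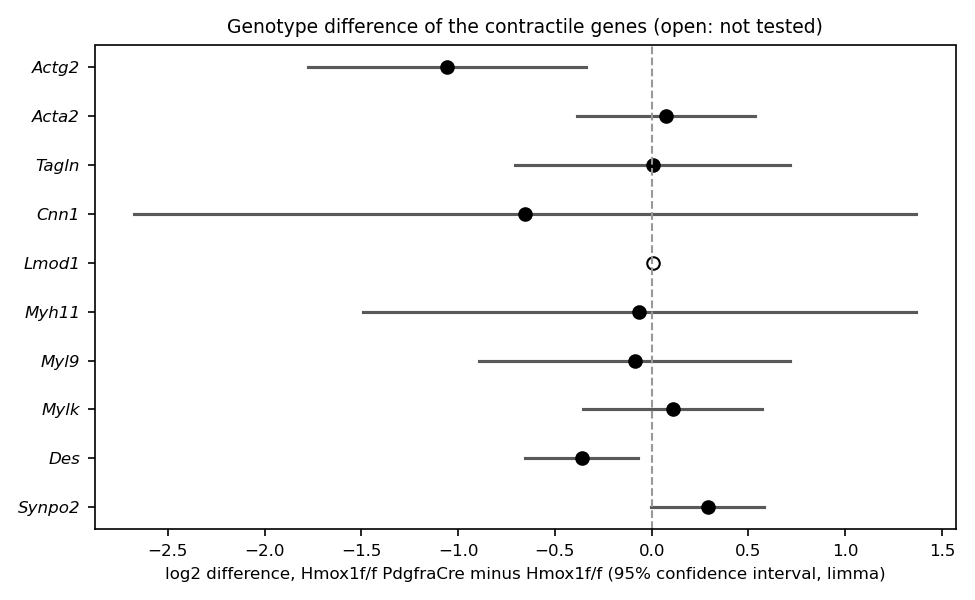
Log2 difference of each contractile gene, Hmox1f/f PdgfraCre minus Hmox1f/f (horizontal axis), with its 95% confidence interval from limma. The intervals of Actg2 and Des lie below 0, that of Synpo2 just reaches across it, and Lmod1 (open symbol) was not tested.

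The spread within genotypes can be set against that of all genes. The residual SD, which is the spread of the arrays around their genotype mean, was 1.41 for Cnn1, 0.99 for Myh11, 0.55 for Myl9, 0.49 for each of Actg2 and Tagln and 0.30 for each of Mylk and Acta2. These 7 genes were all above percentile 90 of the genes tested, Cnn1 at percentile 99.8. Des and Synpo2, at 0.17 each, were at percentile 72.5 and 72.6. The median residual SD was 0.49 over the members tested and 0.12 over all genes tested. At least 2-fold between the highest and the lowest array was seen for 5 of the 9 members tested (Actg2, Tagln, Myh11, Cnn1 and Myl9), against 4.81% of all genes.

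**Figure D3:**
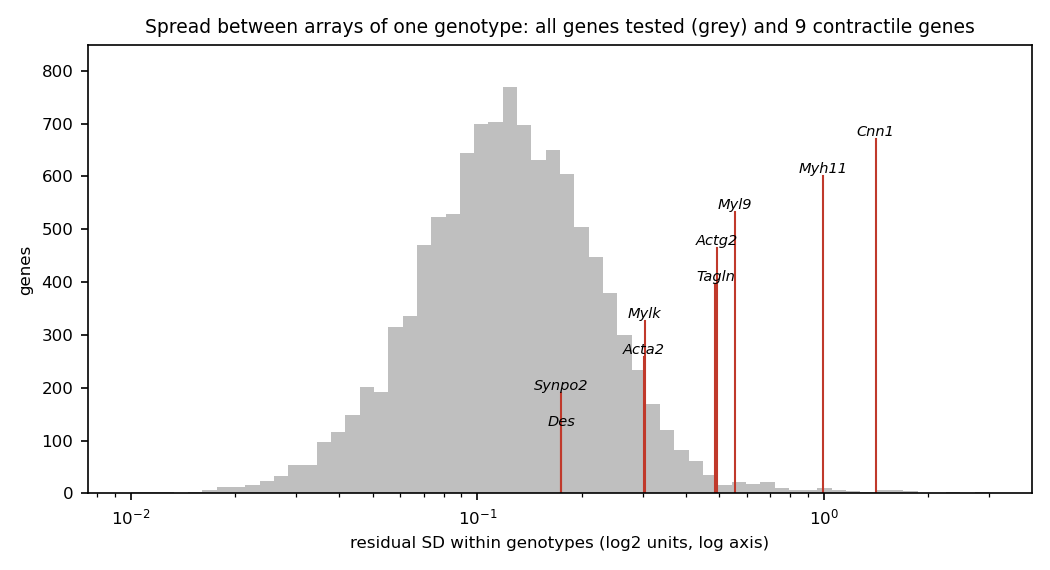
Histogram of the residual SD within genotypes (horizontal log axis, log2 units) over the 11024 genes tested (grey, number of genes), with the 9 members tested as red lines whose height only separates the labels. Cnn1 (1.41) and Myh11 (0.99) lie far to the right of the median of 0.12.

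The arrays that were low were the same ones from gene to gene. Hmox1f/f 6 was the lowest control for all 10 members and Hmox1f/f 4 the highest for all 10. Hmox1f/f PdgfraCre 2 was the lowest array with Cre for 9 members, all but Lmod1, and Hmox1f/f PdgfraCre 3 the highest for 8, all but Acta2 and Lmod1. All 9 members tested had both Hmox1f/f PdgfraCre 2 and Hmox1f/f 6 lowest in their group, a pattern found in 15.4% of all genes tested and noticed in the members before it was counted. For 6 members (Acta2, Tagln, Myh11, Cnn1, Myl9 and Mylk) these were the 2 lowest of all 6 arrays. The mean of the 10 genes, each taken as a deviation from its own mean, was 0.01, -0.53 and 0.27 with Cre and 0.58, 0.20 and -0.53 without, so the groups overlapped fully.

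Actg2 departed from the mean of the set. Taken relative to the mean of the other 9 members on the same array, it was at -0.77, -0.49 and -0.20 with Cre and at 0.46, 0.25 and 0.77 without, a difference of -0.98 with no overlap. Tagln did not overlap either in this measure, at 0.13, 0.10 and 0.07 with Cre and -0.03, -0.24 and -0.03 without. The groups of Actg2 were already apart in its own values, and the measure was not computed for genes outside the set. Actg2 was low on Hmox1f/f PdgfraCre 1, where most other members were near their mean. It was above its mean on Hmox1f/f 6, where most others were low. Des was likewise near its mean (-0.04) on Hmox1f/f 6. Over the 6 arrays, the correlation with the mean of the other 9 members was 0.88 to 0.98 for Acta2, Tagln, Myh11, Cnn1, Myl9 and Mylk, and 0.74 for Des, 0.63 for Lmod1, 0.58 for Actg2 and 0.48 for Synpo2. These are descriptions over 6 arrays that share the normalization.

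**Figure D4:**
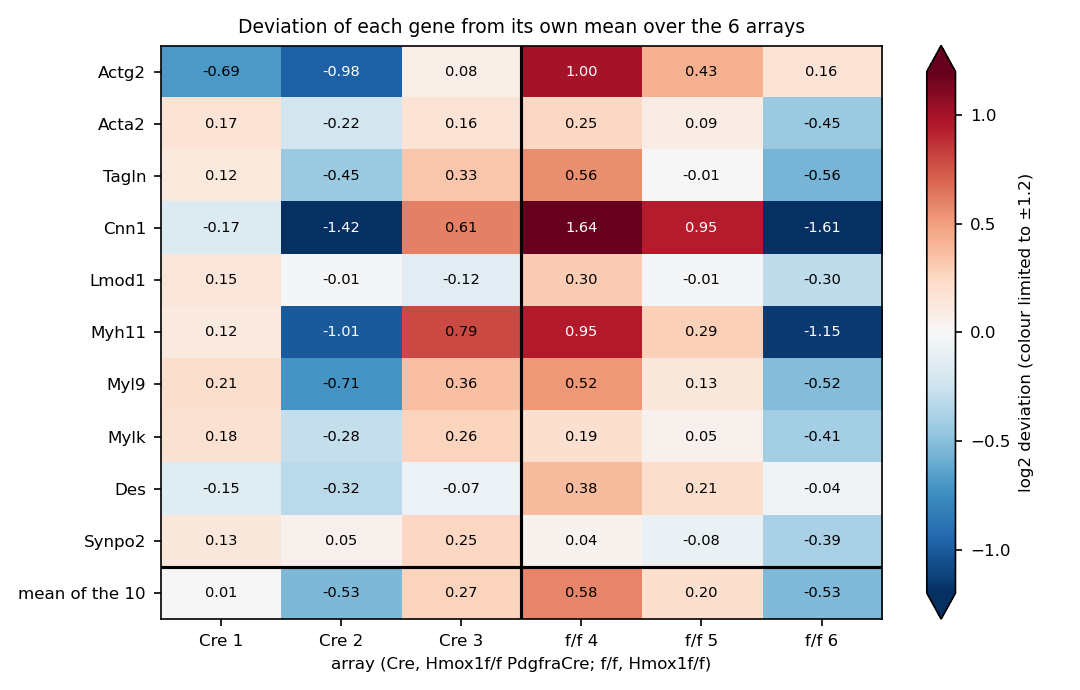
Deviation of each contractile gene from its own mean over the 6 arrays (log2 units, colour and number), with the 3 Hmox1f/f PdgfraCre arrays left of the line and the 3 Hmox1f/f arrays right of it. Hmox1f/f PdgfraCre 2 and Hmox1f/f 6 are blue for most genes, with Cnn1 at -1.42 and -1.61, while Actg2 is low on Hmox1f/f PdgfraCre 1 and 2 and positive on all controls.

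The genes outside the set that followed its mean most closely over the 6 arrays included further muscle genes. They are the 10 closest among all genes tested, so high correlations over 6 arrays follow in part from the choice. Whether muscle genes were more frequent among them was not tested. The highest correlation was that of Tpm2, the beta-tropomyosin of muscle (r = 0.987), at 7.96, 7.58 and 8.34 with Cre and 8.64, 8.18 and 7.64 without. Hpgd, the enzyme that inactivates prostaglandins, followed (0.982), then Pdlim3, which encodes an actinin-associated LIM protein (0.978), with 8.41, 7.67 and 8.42 with Cre and 9.003, 8.40 and 7.58 without. P2rx1, the ATP-gated channel of smooth muscle, was also among the 10 closest (0.961), with a 1.95 log2 range over the arrays. The others were Cbl (0.966), Spg11 (0.964), Snd1 (0.9602), Sec24c (0.958), Stat3 (0.954) and the predicted gene Gm9776 (0.968). Spg11, Snd1, Sec24c, Cbl and Stat3 have small ranges, so their likeness is one of order and not of size. None of these 10 had groups that were apart, which follows largely from picking them for likeness to a mean whose groups overlap.

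Other smooth muscle genes were taken from 6 lists of 109 symbols in all, of which 74 were tested. None passed the adjusted threshold in limma, 3 were lower and 4 higher at an unadjusted p under 0.05 (13.8% and 3.82% over all genes tested), and their median difference was 0.03, beside -0.03 over all genes. Hmox1f/f PdgfraCre 2 and Hmox1f/f 6 were lowest in their group for 32 of the 74 (43.2%, beside 15.4% of all genes). Among regulators the master coactivator Myocd was not above the filter (means of 5.67 with Cre and 5.68 without). Of 8 regulators tested 5 were lower, beside 57.4% of all genes tested. Srf was at -0.15 ± 0.07 (SE) and the TEAD factor Tead1 at 0.27 ± 0.14 (SE). None of the 8 reached an unadjusted p under 0.05.

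Of 13 calcium handling and channel genes found, 3 were tested. The pump Atp2a2 (-0.02), the store sensor Stim1 (0.04) and the chloride channel Ano1 (0.02) all stayed near 0, each with intervals on both sides of it. The rest of this list was too dim to be tested, with means that differed by -0.13 to 0.29. Among 10 receptors and cyclic GMP genes, the oxytocin receptor Oxtr was at 12.64, 12.26 and 12.33 with Cre and 12.02, 12.12 and 12.08 without (0.34 ± 0.11, SE, unadjusted p = 0.0177, adjusted p = 0.217 by limma). Its groups did not overlap, and it is also made by adipocytes. The prostaglandin receptor Ptger3 (0.30) and the natriuretic peptide receptor Npr2 (0.27) did not reach that p.

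Among 15 further filament genes, Tpm3, a tropomyosin found in most cells, was at -0.22 ± 0.08 (SE, unadjusted p = 0.0266), the pointed-end cap Tmod1 at -0.32 ± 0.12 (SE, unadjusted p = 0.0282) and the non-muscle myosin Myh10 at 0.24 ± 0.10 (SE, unadjusted p = 0.0468). Of 27 genes of dense bodies, adhesion and intermediate filaments, 17 were higher, beside 4697 of the 11024 genes tested. The fibronectin receptor chain Itga5 was at -0.30 ± 0.09 (SE, unadjusted p = 0.0104), kindlin-2, Fermt2, at 0.28 ± 0.12 (SE, unadjusted p = 0.0460) and the small heat shock protein Hspb7 at 0.20 ± 0.08 (SE, unadjusted p = 0.0497). All of these had an adjusted p of 0.209 to 0.283 by limma.

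Pericytes are the mural cells of the smallest vessels. All 9 pericyte genes tested were higher with Cre, with a median of 0.29, and 4 of them reached an unadjusted p under 0.05. Over all genes tested, 57.4% were lower and 3.82% were higher at that p. Rgs5, a regulator of G-protein signalling, was at 10.28, 10.23 and 10.52 with Cre and 9.99, 9.75 and 9.29 without (0.66 ± 0.18, SE, adjusted p = 0.1996 by limma). Abcc9, a subunit of the pericyte potassium channel, was at 9.41, 9.12 and 9.54 with Cre and 9.08, 8.94 and 8.41 without (0.55 ± 0.19, SE). In both genes Hmox1f/f 6 was the lowest control and Hmox1f/f PdgfraCre 2 the lowest array with Cre, as in most contractile genes, and Hmox1f/f PdgfraCre 2 lay above every control. The difference between the pericyte and the contractile genes was not tested.

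Signal of other cells moved with arrays and genotypes beside these results. The mean deviation of 8 macrophage markers was -0.36, -0.01 and -0.51 with Cre and 0.31, 0.19 and 0.38 without. All 8 were lower with Cre, beside 57.4% of all genes tested. Their mean level was 10.60 to 11.09 with Cre and 11.30 to 11.48 without. Within each genotype Hmox1f/f PdgfraCre 2 and Hmox1f/f 6, the arrays low in contractile genes, were highest in 7 of the 8. Both were highest in their group for 1431 of the 11024 genes tested. Endothelial markers were higher with Cre in 6 of 6 (median 0.37), as were 4697 of the 11024 genes tested. The endothelial mean level was 9.93 to 10.12 with Cre and 9.43 to 9.82 without. Adipocyte markers were higher in 6 of 6 (median 0.16), at a mean level of 12.35 to 12.45 with Cre and 12.12 to 12.29 without. Hmox1f/f PdgfraCre 2 and Hmox1f/f 6 had the lowest mean of their group in both lists. With the macrophage mean of each array as a covariate, Actg2 was at -2.09 ± 0.52 (SE), Des at -0.69 ± 0.23 (SE), Myh11 at -2.34 ± 0.93 (SE), Myl9 at -1.45 and Cnn1 at -3.54 ± 1.47 (SE). Acta2 (-0.53), Tagln (-0.96) and Mylk (-0.63) turned negative and Synpo2 was at -0.00526. The macrophage mean follows genotype, no gene passed the adjusted threshold in this fit in limma, and 334 genes had an unadjusted p under 0.05.

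Transcripts known from the epididymis, the organ beside this fat pad, were uneven between arrays of both groups. Their source in these samples was not tested. The mean deviation of 8 such genes was 1.57, -1.10 and -0.17 with Cre and -0.63, -0.37 and 0.71 without. Only 2 of them passed the filter, and they differed in array order. Adam7 was at 11.68, 5.43 and 8.93 with Cre and 5.49, 5.52 and 7.85 without. Spink8 was at 12.17, 5.73 and 9.99 with Cre and 9.33, 8.23 and 5.32 without. Without both Hmox1f/f PdgfraCre 1 and Hmox1f/f 6, the arrays with most of this signal, Actg2 was at -1.16 and Des at -0.49, while Cnn1 was at -1.70 (unadjusted p = 0.0364). With the epididymal mean as a covariate Actg2 was at -1.04 and Des at -0.36. Of the arrays low in contractile genes, Hmox1f/f PdgfraCre 2 had the lowest epididymal list mean of all arrays. Hmox1f/f 6 had the highest list mean of the controls, although Spink8 was lowest there. Of 8 skeletal muscle genes 2 passed the filter. The skeletal actin Acta1, close in sequence to the smooth muscle actins, was at 8.51, 8.76 and 8.71 with Cre and 9.13, 8.86 and 8.65 without (-0.22), and the creatine kinase Ckm was at 6.86 to 7.28 with Cre and 6.85 to 7.52 without (-0.14). Among the other 6, the fast myosins Myh1 and Myh4 were at 4.81 to 5.09 and 5.09 to 5.36 over the 6 arrays. Of 6 activated fibroblast genes 4 were tested, 2 lower and 2 higher with Cre, and all 4 overlapped between the groups (Postn -0.17, Tnc 0.09). Cthrc1, which was too dim to be tested, did not overlap, at 6.91, 6.91 and 6.93 with Cre and 6.95, 6.95 and 7.07 without. The part of any of these cells in the contractile values was not tested beyond these fits.

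**Figure D5:**
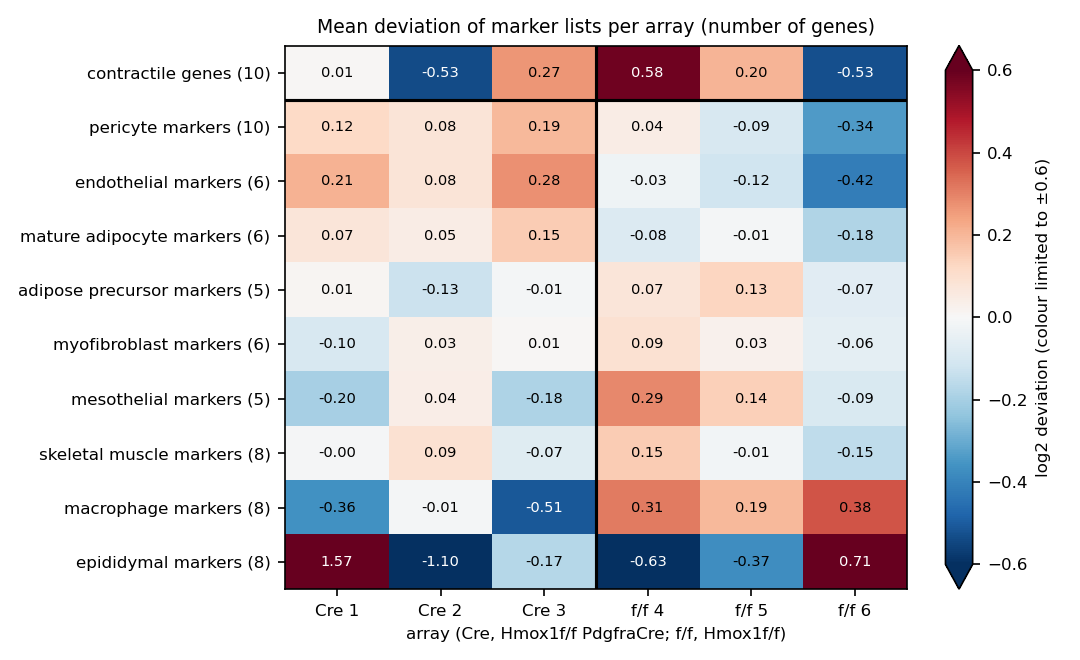
Mean deviation (log2 units, colour and number, colour limited to 0.6 either way) of the contractile genes and 9 marker lists on each array, Hmox1f/f PdgfraCre left of the line and Hmox1f/f right of it, with the number of genes in parentheses. The contractile row is low on Hmox1f/f PdgfraCre 2 and Hmox1f/f 6 (-0.53 each), the macrophage row is split by genotype, and the epididymal row peaks on Hmox1f/f PdgfraCre 1 and Hmox1f/f 6.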

How the data were processed

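Total RNA (200 ng per labelling) of 3 Hmox1f/f PdgfraCre and 3 Hmox1f/f pools was hybridised to Affymetrix mouse gene arrays. The deposited table gives 1 linear-scale intensity for each probeset and array, which the authors made by RMA (background correction, quantile normalization and probe summary) in Affymetrix Expression Console 1.1, per the submitters' processing notes. RMA shrinks differences of dim probesets, and quantile normalization hides a shift shared by most genes. Of 35556 probesets, 21789 carried 1 gene symbol, 1621 several and 12146 none. The brightest probeset of each gene was kept, log2 was taken, and the 11024 genes above 7 on at least 3 arrays were fitted with limma 3.58.1 (lmFit and eBayes, genotype as the only term, two-sided) in R 4.3.3, with Benjamini-Hochberg adjustment over all of them. Figures used matplotlib 3.10.9. The labels do not say whether the pools share litters or days, so p-values measure only the spread between these pools.

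The members and gene lists were chosen with earlier results of these data known. All members are named, with up to 4 genes of the smallest p per list of other smooth muscle genes, the 10 genes most correlated with the member mean, and Hmox1 and Pdgfra. Other genes named (Myocd, marker genes) were chosen after their values were seen. Alternatives were no filter, a filter at 6, a further quantile normalization, median centring, trended robust eBayes, arrayWeights, probeset means, leaving out arrays, and marker covariates. A fit of eBayes over all 19938 genes before the filter was added after the data were seen. The members of 1 list of other smooth muscle genes are not reported here by name.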

Additional observations from a re-analysis of the deposited data

How the results depend on the processing

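Actg2 and Des kept their direction in all 17 other settings and Synpo2 in 16. The adjusted p over these settings was 0.139 to 0.971 for Actg2 and for Des, and in none of the settings did any gene pass the adjusted threshold in limma (334 to 2329 genes at an unadjusted p under 0.05). Of the contractile genes, 2 had an unadjusted p under 0.05. The count was 1 to 3 when each array was left out in turn (1 without Hmox1f/f PdgfraCre 2 or Hmox1f/f 5, 3 without Hmox1f/f 6). It was 4 with the macrophage covariate. Of all genes tested, 2329 of 10888 were at that p without Hmox1f/f PdgfraCre 2, 1555 of 10920 without Hmox1f/f 5 and 1060 of 10938 without Hmox1f/f 6. With the macrophage covariate they were 334 of 11024. The other planned settings gave 2 or 3 members, beside 613 to 2238 of all genes tested. Synpo2 was the third member with a further quantile normalization, median centring and trended robust eBayes. With eBayes over all genes, 1740 genes had an unadjusted p under 0.05, against 1944. A further quantile normalization turned the split to 1123 lower of 1820, against 1523 lower of 1944.

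The median over the members was -0.03, and -0.83 with the macrophage covariate, -0.41 without both arrays highest in the epididymal list mean and -0.26 with arrayWeights. Its sign changed as single arrays were left out. Dropping Hmox1f/f PdgfraCre 2 gave 0.22, dropping Hmox1f/f 4 gave 0.19 and dropping Hmox1f/f 5 gave 0.00274. The value was -0.32 with Hmox1f/f 6 dropped, -0.22 with Hmox1f/f PdgfraCre 3 dropped and -0.10 with Hmox1f/f PdgfraCre 1 dropped. The macrophage covariate also turned Acta2 (-0.53), Tagln (-0.96), Mylk (-0.63) and Synpo2 (-0.00526). Values near 0 changed sign elsewhere too, among them Tagln with median centring (-0.0219), and Acta2 (-0.0585), Tagln (-0.21) and Mylk (-0.0276) with arrayWeights. Acta2 (-0.20), Tagln (-0.33) and Mylk (-0.13) also did so without both arrays highest in the epididymal list mean. Lmod1, not tested, was at 0.00835 and kept its sign in 10 of 17 settings (-0.21 to 0.16). Leaving out each array in turn gave -0.13 to 0.22 for Acta2, -0.27 to 0.29 for Tagln, -0.65 to 0.42 for Myh11, -1.62 to 0.00528 for Cnn1, -0.37 to 0.24 for Myl9 and -0.0684 to 0.28 for Mylk. The cause was not tested. No paired analysis was possible because the genotypes share no replicate numbers. With 3 pools per genotype the spread between pools limits every value, and a dim gene such as Lmod1 has its differences shrunk by RMA.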
